A study of Homo sapiens with 38 samples.

Results

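The genes described here encode the machinery that carries cells past the G1 restriction point: RB1, CDK4, CDK6, CCND1, CCND2, CCND3, CDK2, CCNE1, CDKN2A and CDKN2C. They were taken by symbol from 2 genome-wide CRISPR knockout screens and 1 RNA-seq table, and are 10 of 18029 genes in the Hep3B screen, 10 of 18036 genes in the SNU-398 screen and 10 of 58735 rows of the RNA-seq table. Hep3B and SNU-398 are hepatocellular carcinoma cell lines, both made to express Cas9 and transduced with the TKOv3 guide library. In each line the transduced pool was divided into 8 groups with 2 libraries each. Abemaciclib and Palbociclib, inhibitors of CDK4 and CDK6, were each given for 14 days at a dose that inhibits 20% (IC20), as were Sorafenib, Regorafenib and Lenvatinib, inhibitors of tyrosine kinases, and Erastin, an inducer of ferroptosis, an iron-dependent form of cell death. T1 was the pool of the later time point, taken here as the vehicle arm because it is the only label left for it, and T0 was the pool harvested before treatment. The RNA-seq compared 3 libraries of Hep3B PSTK-KO cells (labelled PSTK-/-, a puromycin-selected pool made with a construct carrying a pair of guides) with 3 libraries of Hep3B control cells.

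In a resting cell the RB1 protein holds E2F transcription factors inactive. Growth signals raise D-type cyclins, which bind CDK4 or CDK6 and start the phosphorylation of RB1, and cyclin E with CDK2 continues it until E2F is free to switch on the genes of DNA replication. The INK4 proteins of CDKN2A and CDKN2C block CDK4 and CDK6, as Abemaciclib and Palbociclib do, and loss of RB1 is a known route by which tumour cells escape these drugs.

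The Hep3B libraries held 11198022 to 46376708 guide counts and the SNU-398 libraries 11558112 to 46043970, so that a guide with a count of 0 could have had up to 0.0647 to 0.268 CPM (counts scaled to the total of the library) in Hep3B and up to 0.0652 to 0.26 CPM in SNU-398, for counting error only. Most guide counts were even, 77.2% to 97.3% of them in a Hep3B library and 85.7% to 97.4% in a SNU-398 library, and nothing states why; if each read was counted 2 times, these limits would be 2 times as high and each printed count would stand for fewer reads. The members had 39 of the 66890 Hep3B guides and 37 of the 66582 SNU-398 guides, with 36 in both tables. Libraries of 1 group differed by a chi-square of 2.46 to 3.67 per degree of freedom on the deposited counts, or 1.23 to 1.83 on halved counts, except for SNU-398 Erastin (30.8, or 15.4 on halved counts), and nothing in the labels places them in separate cultures, so the p-values below measure only the spread between these libraries. The second SNU-398 Erastin library stood apart. Its log2(CPM + 1) values correlated at 0.961 with the Hep3B T1 mean, against 0.898 to 0.948 for the other SNU-398 libraries. With the SNU-398 T1 mean they correlated at 0.958, where the first Erastin library had 0.957. SNU-398 results are therefore given with and without the second Erastin library. A guide counts as called when its edgeR quasi-likelihood test passed a Benjamini-Hochberg adjusted p of 0.05 over all guides tested in that line.

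Many member guides had too few counts to follow. A mean T1 count of at least 30 was reached by 18 of the 39 Hep3B guides and by 14 of the 37 SNU-398 guides, and by 43.3% of all guides in either line. At 0 in 8 or more of the 16 libraries were 18 member guides in Hep3B and 13 in SNU-398, against 49.2% and 33.1% of all guides. Of all Hep3B guides, 4.34% and 6.43% were at 0 in the T0 libraries, the deepest ones, and 38.7% and 39.4% in T1. In SNU-398 these shares were 10.7% and 12.6% in T0 and 25.3% and 29.3% in T1. The most abundant 1% of guides held 40.5% to 41.2% of the counts of a library. How far loss of guides in culture moved single guides was not tested. CDK2 had no guide with a mean T1 count of 30 in either line, and CDK4 and CCND2 had 1 each in Hep3B and none in SNU-398. CDK6 had 4 such guides in both lines, CCND1 had 3 and RB1 had 2, so these genes carry most of the description that follows. Guides are numbered along each gene from its transcription start, and their positions are those in the guide names, for which no genome build is given in the sources used here.

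The 4 libraries of CDK4/6 inhibitors were set against the 8 libraries of the other inhibitors, a comparison that uses no T1 library. The fit has a mean for each drug, so its standard errors and p-values measure the spread between libraries of the same drug. The spread between drugs of a class does not enter them, here or in the difference between the lines. Member guides moved in both directions in either line. In Hep3B 12 of 26 tested member guides were called, 5 lower and 7 higher under the CDK4/6 inhibitors, where 46.0% of all 43947 guides tested were called. In SNU-398 8 of 29 were called, 2 lower and 6 higher, where 38.5% of all guides were called, while DESeq2 called 7 lower and 6 higher; without the second Erastin library 12 were called, where 47.3% of all guides were. In the full edgeR fits, the calls over all guides were 8917 lower and 11279 higher in Hep3B, and 6185 lower and 14239 higher in SNU-398. DESeq2 called 8758 lower and 13951 higher over all SNU-398 guides. Guides against LacZ, EGFP and luciferase, which have no human target, were called in 47 of 84 cases in Hep3B and in 47 of 109 cases in SNU-398. In the full fits 46.2% of the tested member guides and 56.0% of these control guides were called in Hep3B, and 27.6% and 43.1% in SNU-398, so the members' share was at or below the background. Among guides with a mean T1 count of at least 30, the members spanned -4.77 to 1.62 on the log2 scale in Hep3B, both ends being guides with a treatment group at 0, and the control guides -2.30 to 3.39. In SNU-398 the members spanned -0.28 to 2.43 and the control guides -1.15 to 5.97.

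**Figure D1:**
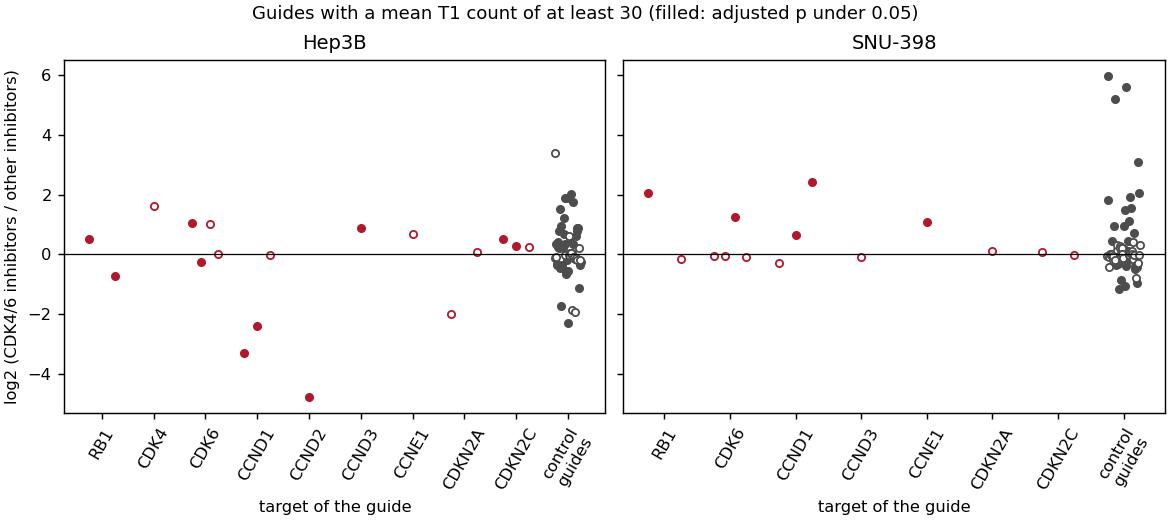
Log2 ratio of CDK4/6 inhibitors over the other inhibitors (vertical axis) for each guide with a mean T1 count of at least 30, by the target of the guide (horizontal axis), in Hep3B and SNU-398; filled points passed an edgeR adjusted p of 0.05. In Hep3B 10 of 18 member guides and 39 of 55 control guides are filled, and in SNU-398 5 of 14 and 30 of 59; the CCND2 and CDK4 points and the lower CDKN2A point in Hep3B rest on groups with both libraries at 0.

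RB1 encodes the retinoblastoma protein, the pocket protein that the CDK4/6 kinases phosphorylate. Its guide 1 (chr13:48878147-48878166) had 8.40 and 7.27 CPM under Abemaciclib and 3.38 and 3.39 CPM under Palbociclib in Hep3B. The 8 Hep3B libraries of the other inhibitors had 0.268 CPM at the lowest, 7.44 CPM at the median and 9.25 CPM at the highest, and T1 had 2.85 and 3.80 CPM. The ranges overlapped, and the low end was set by the Regorafenib libraries, at 0.379 and 0.268 CPM. The mean was 5.61 ± 2.61 CPM under the CDK4/6 inhibitors and 6.05 ± 3.67 CPM under the others (SD over 4 and 8 libraries). On the log2 scale, where each drug group has equal weight and the low Regorafenib group counts more, the fitted difference between the classes was 0.53 (SE 0.19, edgeR adjusted p = 0.0141), and the call was lost without the first Abemaciclib library (adjusted p = 0.0797) or the first Palbociclib library (adjusted p = 0.0507).

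RB1 guide 2 (chr13:48881509-48881528) in Hep3B had 0.741 and 0.928 CPM under Abemaciclib and 2.75 and 2.86 CPM under Palbociclib, against 0.329, 2.93 and 11.6 CPM as the lowest, median and highest of the other inhibitors, and 3.91 and 1.82 CPM in T1. The ranges again overlapped, with Sorafenib highest at 11.6 and 10.5 CPM. Its class difference was -0.74 (SE 0.27, edgeR adjusted p = 0.0181), and the call was lost without the first library of Abemaciclib (adjusted p = 0.103), Lenvatinib (0.124) or Regorafenib (0.0523). The fitted ratios of the pair of RB1 guides thus had opposite signs while the mean CPM of both was lower under the CDK4/6 inhibitors (1.82 ± 1.14 against 4.35 ± 4.31 CPM for guide 2), and RB1 guides 3 and 4 were at 0 in all Hep3B libraries of the CDK4/6 inhibitors and of T1.

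In SNU-398 RB1 guide 1 separated the drug classes. It had 12.9 and 11.1 CPM under Abemaciclib and 13.5 and 10.8 CPM under Palbociclib, while the other inhibitors had 0.501 CPM at the lowest, 3.78 CPM at the median and 8.16 CPM at the highest. The groups did not overlap. T1 had 12.6 and 13.3 CPM and T0 4.13 and 3.38 CPM, so the CDK4/6 inhibitor libraries lay at the T1 level and the others below it. The class difference was 2.07 (SE 0.15, edgeR adjusted p = 3.13e-07), and 2.03 without the second Erastin library. RB1 guide 2 had 4.35 and 5.19 CPM under Abemaciclib and 5.46 and 4.23 CPM under Palbociclib, against 1.79, 6.0 and 13.2 CPM as the lowest, median and highest of the others, a difference of -0.14 (SE 0.18, adjusted p = 0.648). The 2 usable guides to this gene did not move together in SNU-398 either: under Lenvatinib guide 1 had 0.501 and 0.969 CPM and guide 2 had 13.2 and 10.8 CPM.

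**Figure D2:**
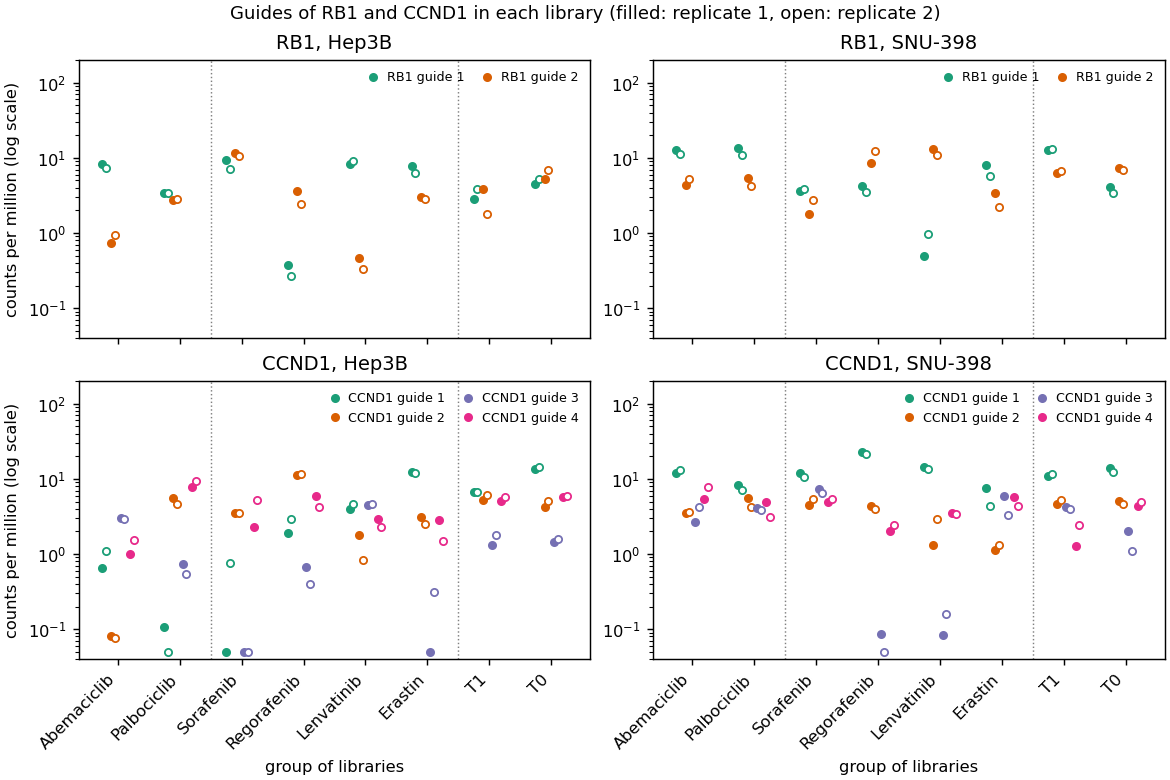
CPM, counts scaled to the library total (vertical axis, log scale), of RB1 guides 1 and 2 and CCND1 guides 1 to 4 in each library, by treatment group, in Hep3B (left) and SNU-398 (right); filled and open points are replicates 1 and 2, dotted lines part the CDK4/6 inhibitors, the other inhibitors and the untreated pools, and libraries at 0 are drawn at 0.05 CPM. RB1 guide 1 lies between 10.8 and 13.5 CPM under the CDK4/6 inhibitors in SNU-398, above all libraries of the other inhibitors. CCND1 guide 2 in Hep3B is at 0.0824 and 0.0773 CPM (2 and 1 counts) under Abemaciclib.

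CCND1 encodes cyclin D1, the D-type cyclin most often amplified in carcinomas. In Hep3B its guide 1 (chr11:69456248-69456267) had 0.659 and 1.08 CPM under Abemaciclib, and under Palbociclib 0.106 CPM in one library and a count of 0 in the other. The other inhibitors had a count of 0, 3.44 CPM and 12.4 CPM as the lowest, median and highest, and T1 had 6.76 and 6.78 CPM. Erastin was highest and Sorafenib, with 0 and 0.757 CPM, overlapped the CDK4/6 inhibitors. The class difference was -3.30 (SE 0.45, edgeR adjusted p = 1.93e-09); without the second Sorafenib library it was -1.86 and no longer called (adjusted p = 0.9998); the Sorafenib library that remained was at 0. Against T1 the CDK4/6 inhibitors differed by -4.59 (SE 0.39).

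CCND1 guide 2 (chr11:69457804-69457823) in Hep3B had 0.0824 and 0.0773 CPM under Abemaciclib but 5.60 and 4.64 CPM under Palbociclib, against 0.823, 3.30 and 11.5 CPM as the lowest, median and highest of the other inhibitors and 5.21 and 6.12 CPM in T1. Its class difference of -2.40 (SE 0.34, adjusted p = 5.88e-09) therefore rested on Abemaciclib, and Abemaciclib and Palbociclib differed by -5.73 (SE 0.57). The Abemaciclib libraries held only 2 and 1 counts of this guide, so the sizes of both differences are set near 0 counts and are uncertain. Guide 4 did not separate the classes (-0.01, SE 0.19), with 0.988 and 1.55 CPM under Abemaciclib and 7.71 and 9.47 CPM under Palbociclib, and guide 3, which had only 32 and 22 counts in T1, was called higher under the CDK4/6 inhibitors. Its fitted ratio is no bound because both Sorafenib libraries were at 0, and the class means were 1.82 ± 1.36 CPM under the CDK4/6 inhibitors and 1.31 ± 2.01 CPM under the others, with Lenvatinib highest at 96 and 56 counts. In SNU-398 guide 1 differed by -0.28 (SE 0.13, adjusted p = 0.0855; -0.36, adjusted p = 0.00119, without the second Erastin library), guide 2 by 0.66 (adjusted p = 0.0161) and guide 3 by 2.43 (adjusted p = 2.56e-05). The call of SNU-398 guide 2 was lost without the first Palbociclib library (adjusted p = 0.102). The guide 3 difference came from Regorafenib, with 2 and 0 counts, and Lenvatinib, with 2 and 2 counts, where Abemaciclib had 66 and 67 counts and Palbociclib 90 and 56.

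Cyclins D2 and D3, the products of CCND2 and CCND3, bind the same kinases. In Hep3B CCND2 guide 2 (chr12:4385334-4385353) had 10 and 8 counts under Abemaciclib and 0 and 0 under Palbociclib, against 6 to 96 counts under the other inhibitors and 58 and 20 in T1. It was called lower under the CDK4/6 inhibitors, but its fitted ratio is no bound because both Palbociclib libraries were at 0. In the Hep3B RNA-seq below, CCND2 had 3 counts in the second PSTK-KO library and none elsewhere. Whether this guide's change came from loss of cyclin D2 was not tested. CCND3 guide 4 (chr6:41904405-41904424) had 19.4 and 14.3 CPM under Abemaciclib and 22.8 and 20.3 CPM under Palbociclib, against 2.88, 14.2 and 19.6 CPM as the lowest, median and highest of the others. It was higher under the CDK4/6 inhibitors by 0.90 (SE 0.09, edgeR adjusted p = 3.65e-14), with Sorafenib lowest at 3.47 and 2.88 CPM and T1 above all inhibitors at 25.7 and 30.3 CPM. CCND3 guide 3 was also called higher in Hep3B, at 0.72 (SE 0.23), but its mean T1 count of 20 is under the limit of 30. It had 3.62 to 6.07 CPM under the CDK4/6 inhibitors, above its T1 mean of 0.898 CPM, where guide 4 lay below T1. In SNU-398 the CCND3 guide 4 classes overlapped, 12.2 to 18.7 CPM under the CDK4/6 inhibitors and 13.2 to 19.9 CPM under the others, and the difference was -0.07 (SE 0.09, adjusted p = 0.636).

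CDK4 and CDK6 are the catalytic partners of the D-type cyclins and the targets of Abemaciclib and Palbociclib. CDK6 guide 3 was the member guide with the highest median count in either line. In Hep3B CDK6 guide 3 (chr7:92300772-92300791) had 270 and 262 CPM under Abemaciclib and 354 and 349 CPM under Palbociclib, against 328, 369 and 419 CPM as the lowest, median and highest of the others. That difference of -0.25 (SE 0.03, edgeR adjusted p = 1.30e-13) was called, whereas guide 1 (chr7:92462548-92462567) differed by 0.01 (SE 0.03). CDK6 guide 4 (chr7:92247487-92247506) had 16.1 and 14.5 CPM under Abemaciclib and 3.17 and 4.20 CPM under Palbociclib, against 1.25, 2.99 and 13.2 CPM for the others; its difference of 1.05 (SE 0.15) was called, and T1 had 9.53 and 8.93 CPM. CDK6 guide 2 fell to 0 to 0.773 CPM in the Hep3B libraries of Abemaciclib, Palbociclib, Sorafenib and Erastin. Its class difference was not called (1.02, SE 0.54, edgeR adjusted p = 0.123). In SNU-398 guide 2 was the CDK6 guide called in the full fit: 3.47 and 3.80 CPM under Abemaciclib and 6.09 and 5.87 CPM under Palbociclib, against 0.377, 2.88 and 4.52 CPM for the others (1.25, SE 0.20, adjusted p = 0.000147). Guides 1, 3 and 4 differed there by -0.09, -0.05 and -0.05, and guide 1 was called without the second Erastin library (-0.11, adjusted p = 0.00221).

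CDK4 guides were low throughout. In Hep3B guide 3 (chr12:58144708-58144727) had 22 and 10 counts under Palbociclib, 54 and 30 under Regorafenib and 38 and 32 in T1, and was at 0 in both libraries of Abemaciclib, Sorafenib, Lenvatinib and Erastin. Guide 4 had 18 and 4 counts under Palbociclib, 58 and 20 under Regorafenib, 2 and 2 under Erastin and 14 and 2 in T1, and was at 0 in the other inhibitor libraries. Guide 1 had 10 and 8 counts under Palbociclib and 30 and 12 in T1 and was at 0 in every other inhibitor library. Guides 1, 3 and 4 were thus all at 0 under Abemaciclib and all present under Palbociclib in Hep3B. Of all Hep3B guides, 49.6% and 52.4% were at 0 in the Abemaciclib libraries and 49.1% and 49.5% in the Palbociclib libraries. Whether these CDK4 guides moved together beyond that background was not tested. With groups at 0 in both classes the class fit of these guides has no usable standard error, and none is given. In SNU-398 CDK4 guide 3 had 8 and 2 counts under Abemaciclib and 0 and 4 under Palbociclib, against 0 to 24 counts under the others, and guides 1 and 4 were at 0 in all but 1 inhibitor library.

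CDK2 and cyclin E1, encoded by CCNE1, act after the CDK4/6 step. No CDK2 guide exceeded 4 counts in any Hep3B inhibitor library. Their mean levels were already 0.0431 to 0.305 CPM in Hep3B T0, so a change was not detectable from this pool. In SNU-398 CDK2 guide 2 had 18 and 10 counts under Abemaciclib and 6 and 2 under Palbociclib, against 0 to 6 counts under the others, and was called higher, with Lenvatinib and Erastin at 0. CCNE1 guide 4 (chr19:30313192-30313211) was the CCNE1 guide with usable counts. In SNU-398 it had 13.1 and 14.3 CPM under Abemaciclib and 14.4 and 14.5 CPM under Palbociclib, against 2.44, 7.86 and 14.0 CPM for the others and 6.73 and 9.52 CPM in T1. It was higher under the CDK4/6 inhibitors by 1.08 (SE 0.14, edgeR adjusted p = 3.23e-05), with the first Erastin library, at 14.0 CPM, the only one of the others inside the range of the CDK4/6 inhibitors. In Hep3B it had 1.07 and 0.309 CPM under Abemaciclib and 2.32 and 4.29 CPM under Palbociclib, all below the 7.41 and 6.28 CPM of T1, and 0.0936, 1.78 and 4.87 CPM under the others (0.68, SE 0.33, adjusted p = 0.0859).

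CDKN2A encodes p16INK4a and, in another reading frame, p14ARF, and CDKN2C encodes p18INK4c. In Hep3B CDKN2A guide 1 (chr9:21974774-21974793) had 74.6 and 77.6 CPM under Abemaciclib but 22.3 and 22.4 CPM under Palbociclib, against 18.9, 41.9 and 63.5 CPM for the others and 22.2 and 21.3 CPM in T1. The class difference was 0.08 (SE 0.06, edgeR adjusted p = 0.294) although the CDK4/6 inhibitors differed from each other by 1.94 (SE 0.09, adjusted p = 1.59e-30). In SNU-398 this guide had 24.7 and 26.2 CPM under Abemaciclib and 26.7 and 28.0 CPM under Palbociclib, against 13.9, 26.9 and 39.9 CPM for the others, where the highest value is the second Erastin library. Its class difference was 0.11 (SE 0.10) with that library and 0.20 (SE 0.07, adjusted p = 0.00806) without it. CDKN2A guide 4 in Hep3B had 0 and 0 counts under Abemaciclib and 22 and 10 under Palbociclib, against 2 to 16 counts under the others and 52 and 24 in T1, and was not called between the classes. CDKN2C guides 1 and 2 (chr1:51436065-51436084 and chr1:51436066-51436085) are 1 base apart on the same strand and so are not independent. In Hep3B guide 2 had 137 and 137 CPM under Abemaciclib and 134 and 130 CPM under Palbociclib, above the 103 to 118 CPM of the others, a difference of 0.29 (SE 0.03, adjusted p = 4.67e-12), with T1 at 140 and 134 CPM. Guide 1 differed by 0.53 (SE 0.21, adjusted p = 0.0298) and lost its call without the first library of Abemaciclib (adjusted p = 0.122), Palbociclib (0.199) or Erastin (0.0881). In SNU-398 neither was called, at 0.09 and -0.02 in the full fit.

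The response of the 2 CDK4/6 inhibitors themselves, at their matched IC20 and time, was compared guide by guide. In Hep3B Abemaciclib and Palbociclib differed for 18 of 26 tested member guides, where 53.1% of all guides were called. In SNU-398 they differed for 6 of 29, where 13.6% of all guides were called, and for 11 without the second Erastin library, where 33.9% were; without either library of Abemaciclib or Palbociclib in turn, none of the 29 was called by edgeR, with 7 or 8 at an unadjusted p under 0.05. RB1 guide 1 in Hep3B was higher under Abemaciclib by 1.39 (SE 0.27, edgeR adjusted p = 6.43e-06) and RB1 guide 2 lower by 1.60 on the log2 scale (difference -1.60, SE 0.42, adjusted p = 0.000838). In SNU-398 RB1 guide 1 differed by -0.04 (95% interval by the normal approximation -0.51 to 0.43) and guide 2 by -0.06 (-0.62 to 0.49). CCND1 guide 1 was higher under Abemaciclib in either line, by 3.68 (1.92 to 5.44) in Hep3B and 0.69 (0.29 to 1.09) in SNU-398. CCND1 guides 2 and 4 in Hep3B were lower, by -5.73 and -2.64. The Hep3B sizes are uncertain for guide 1, with 2 and 0 counts under Palbociclib, and guide 2, with 2 and 1 under Abemaciclib. CDK6 guide 1 differed by -0.07 (-0.18 to 0.04) in Hep3B and 0.02 (-0.12 to 0.15) in SNU-398. CCND3 guide 4 differed by -0.16 (-0.44 to 0.11) in Hep3B and was higher under Abemaciclib in SNU-398 (0.49, 0.22 to 0.76).

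Against T1, the CDK4/6 inhibitors together changed 19 of 26 Hep3B member guides, 15 lower and 4 higher. Of all guides 64.8% were called there, 17767 lower and 10712 higher. In SNU-398 5 of 29 were called, where 9.12% of all guides were, and 9 without the second Erastin library, where 28.8% were. The SNU-398 count was 0 by edgeR without the first or the second T1 library (5 and 6 at an unadjusted p under 0.05). It was 1 without either Abemaciclib library or the second Palbociclib library, and 2 without the first Palbociclib library. Taken singly, the 6 inhibitors gave 105 calls among the 26 Hep3B member guides, where 62.2% of all tests were called, and 59 among the 29 SNU-398 member guides, where 27.3% were (99 without the second Erastin library, where 44.8% were; 28 and 29 without the first and second T1 library). The Hep3B calls numbered 23 under Abemaciclib and 10 under Palbociclib, where 66.9% and 58.0% of all guides were called, and 17 to 19 under the others, where 54.4% to 68.3% were. In SNU-398 Abemaciclib gave 1 call and Palbociclib 4, where 2.95% and 13.6% of all guides were called. Sorafenib gave 15, Regorafenib 16, Lenvatinib 13 and Erastin 10, where 36.4%, 40.7%, 45.4% and 24.7% of all guides were, in that order. Without the second Erastin library, Abemaciclib gave 7 calls and Palbociclib 11 in SNU-398, where 23.5% and 33.8% of all guides were called. Sorafenib, Regorafenib and Lenvatinib then gave 20 each, where 52.2%, 56.7% and 60.1% were. All these comparisons share their T1 libraries.

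The change over the 14 days without inhibitor was given by T1 against T0. The calls over all Hep3B guides were 16186 lower and 11562 higher. In Hep3B 14 of 26 member guides were called, 7 lower and 7 higher, where 63.1% of all guides were called, and 9 were called without the first T0 library. In SNU-398 7 of 29 were called, where 14.4% of all guides were, and 13 without the second Erastin library, where 37.1% were; without either T0 library or the first T1 library 1 was called, and without the second T1 library 2. RB1 guide 1 fell in Hep3B, with 2.85 and 3.80 CPM in T1 against 4.53 and 5.19 CPM in T0 (-0.62, SE 0.26, edgeR adjusted p = 0.0335), as did RB1 guide 2 (-1.04, SE 0.30, adjusted p = 0.00217). The first call was lost without either T0 library (adjusted p = 0.0527 and 0.152) or the first T1 library (0.355), and the second without the second T1 library (0.0992). In SNU-398 RB1 guide 1 rose instead, with 12.6 and 13.3 CPM in T1 against 4.13 and 3.38 CPM in T0 (1.77, SE 0.25, adjusted p = 0.00169; 1.74 without the second Erastin library), and guide 2 differed by -0.14 (SE 0.27). The Hep3B guides CCND1 guide 1 (-1.08), CDK6 guide 4 (-0.99) and CDK6 guide 2 (-1.06) were called lower in T1. Called higher were CCND3 guide 4 (0.52), CDKN2C guide 2 (0.34), CDKN2C guide 4 (2.08), CDK4 guide 3 (1.48), CCND2 guide 2 (1.36) and CDK6 guide 1 (0.18). The CDK6 guide 2 call was lost without the first T0 library (adjusted p = 0.191) or either T1 library (0.0962 and 0.0613).

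The difference between the lines was itself tested over the guides in both tables, as the class contrast in SNU-398 minus that in Hep3B. It was called for 8 of 31 member guides, where 26.9% of all 56477 guides and 25 of 113 control guides were called. CCND1 guide 1 (3.03, SE 0.50, edgeR adjusted p = 9.97e-06) and guide 2 (3.07, SE 0.38, adjusted p = 1.19e-07) and RB1 guide 1 (1.55, SE 0.25, adjusted p = 8.11e-06) were higher in SNU-398. The CCND1 sizes are uncertain, since in Hep3B guide 1 had 2 and 0 counts under Palbociclib and guide 2 had 2 and 1 under Abemaciclib. CDK6 guide 4 (-1.09) and CCND3 guide 4 (-0.96) were higher in Hep3B. RB1 guide 2 did not pass (0.60, SE 0.32, adjusted p = 0.205).

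At the gene level the screens were scored by NormZ, the DrugZ statistic that combines the guides of a gene into a Z score. A resister has a NormZ below 0, its guides being lost under the inhibitor, and a sensitizer a NormZ above 0. Over the 6 Hep3B screens 2 member scores passed p of 0.01, both as resisters, where 1.77% of all gene scores were resisters and 0.827% sensitizers at that p. Both belonged to CDK6, with a NormZ of -3.27 under Sorafenib (adjusted p = 0.166) and -2.50 under Palbociclib (adjusted p = 0.436). CDK6 also had -2.02 under Erastin, -1.91 under Regorafenib and -1.74 under Abemaciclib, and the lowest CDK6 score was thus outside the CDK4/6 inhibitors. CCND1 had -2.32 under Abemaciclib (adjusted p = 0.607), -1.97 under Sorafenib and -1.72 under Palbociclib. RB1 scored 1.98 under Sorafenib, past an unadjusted p of 0.05 as a sensitizer, but 0.53 under Abemaciclib and 0.52 under Palbociclib, neither of which passed p of 0.05. CCND3 had -1.75 under Sorafenib, and the other Hep3B member scores lay between -1.60 and 1.04.

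In SNU-398 no member score passed p of 0.01, where 1.6% of all gene scores were resisters and 0.852% sensitizers, and 5 passed p of 0.05 by NormZ. Leaving out either replicate number gave 2 at p of 0.01 in SNU-398; in Hep3B it gave 1 without replicate 1 and 3 without replicate 2. RB1 was low under Sorafenib (-2.24), Lenvatinib (-2.18) and Erastin (-1.67, or -0.84 without the second Erastin library), with -0.54 under Abemaciclib and -0.29 under Palbociclib. CDKN2C had -2.22 under Palbociclib and CCNE1 -1.90 under Regorafenib. The RB1 score thus had opposite signs under Sorafenib in the 2 lines, a difference that was not tested. When the drug classes were scored against each other directly, 1 Hep3B member passed p of 0.01, CCND3 at 2.42 (adjusted p = 0.769), where 1.65% of all genes were lower and 1.23% higher. CCND1 had -1.76 and CDKN2C 1.77 in that comparison. No SNU-398 member did, where 1.31% were lower and 1.13% higher, with CCNE1 at 2.13 and CDKN2C at -1.95, both past an unadjusted p of 0.05. No member score passed a Benjamini-Hochberg adjusted p of 0.05 in either line by NormZ.

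Other genes of the pathway were scored in the same way between the drug classes. Of 32 other RB pathway genes, none passed p of 0.01 in Hep3B by NormZ (median -0.06, where all genes had 0.08) and 2 did in SNU-398, both lower (median 0.01 in the list and over all genes). Those 2 were RBL2, a pocket protein related to RB1, at -2.59 (-2.89 without the second Erastin library) and CDKN2D, another INK4 inhibitor, at -2.43. The scores farthest from 0 after these were 1.96 for CDKN1C and -1.70 for CDKN2B in SNU-398, and in Hep3B 2.13 for RBL1, 1.92 for TFDP1, -1.85 for RBL2 and -1.73 for LIN9. Of 25 E2F target genes measured, 1 passed p of 0.01 in each line, both higher: MCM2, a subunit of the replicative helicase, at 2.44 in Hep3B, and RRM1, a subunit of ribonucleotide reductase, at 3.14 in SNU-398. The next were RBL1, CDC6 (1.95) and MYBL2 (1.58) in Hep3B, and POLA1 (2.19), MCM6 (-2.01) and MCM7 (-1.84) in SNU-398. Over the 12 screens, the NormZ profiles most like that of RB1 among 18024 genes were those of ASXL1 (Pearson r 0.91), MMP14 (0.90) and BOD1L1 (0.89). This is a description, since the 6 screens of a line share their T1 libraries. The genes were also picked as the highest of 18024 correlations over 12 values each. How high the top of so many would lie for unrelated profiles was not tested.

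The RNA-seq asked how the same genes stood in Hep3B cells when PSTK, the kinase that makes the precursor of selenocysteine transfer RNA, was targeted. PSTK RNA itself had 0.650, 0.706 and 0.824 FPKM (fragments scaled to gene length and library size) in PSTK-KO cells and 0.777, 0.828 and 0.668 FPKM in control cells, a log2 difference of -0.06 (SE 0.18, edgeR adjusted p = 0.840), so the RNA level does not check the labels. Most of 10 genes that define hepatocytes were near absent in all libraries, so these genes do not check the label of a liver line. Their summed level was 2.3 to 2.84 FPKM in PSTK-KO and 4.01 to 4.88 FPKM in control cells. Most of it came from HNF4A, at 2.46, 1.97 and 2.19 FPKM in PSTK-KO and 3.84, 3.35 and 3.35 FPKM in control cells. TTR was at 0 in every library and AFP did not exceed 0.056 FPKM. Of the 10, 3 were high enough to test. ALB (-5.99, with 1, 0 and 0 counts in PSTK-KO) and HNF4A (-0.67) were lower in PSTK-KO cells, and FGB (2.55) was higher. Markers of fibroblasts, endothelium and blood summed to 3.80 to 4.09 FPKM in PSTK-KO and 5.62 to 5.95 FPKM in control cells, with PTPRC and CD3E at 0; all 4 that could be tested of 11 were lower in PSTK-KO cells, and the part of other cells in the results below was not tested. Fewer cells of a type and less RNA per cell cannot be told apart in such bulk libraries, which held 15404153 to 16851558 counts each.

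Of the 10 genes, 9 were tested and 8 called, 4 higher and 4 lower in PSTK-KO cells, where 32.8% of all 15370 genes tested were called, 15.6% higher and 17.2% lower. The groups did not overlap for 44.6% of all genes tested. CCNE1, CDK6, CCND1 and CDKN2A were higher and CCND3, RB1, CDKN2C and CDK4 lower, while CDK2 did not differ beyond its spread. CCND2 had 3 counts in the second PSTK-KO library and none elsewhere and was not tested. Levels of different genes are compared here per length, as FPKM: CCND1 and CDKN2A were the highest members and RB1 and CCNE1 the lowest of those tested.

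RB1 (chr13:48303726-48599436, position in the RNA-seq table, GRCh38) had 10.6, 11.4 and 10.4 FPKM in PSTK-KO cells and 12.9, 15.5 and 13.2 FPKM in control cells. The groups did not overlap, and the log2 difference was -0.37 (SE 0.07, edgeR adjusted p = 5.34e-05). Among the cyclins, CCND1 (chr11:69641087-69654474) had 71.1, 70.2 and 69.1 FPKM in PSTK-KO and 56.5, 57.7 and 57.0 FPKM in control cells, higher by 0.29 (SE 0.05, adjusted p = 6.67e-06). CCND3 (chr6:41934933-42050357) had 25.5, 24.6 and 24.7 FPKM in PSTK-KO and 39.8, 35.3 and 37.6 FPKM in control cells, lower by 0.59 on the log2 scale (difference -0.59, SE 0.05, adjusted p = 8.43e-11). These D-type cyclins changed in opposite directions, and CCND1 was the more abundant in either genotype. CCNE1 (chr19:29811898-29824308) had 19.7, 19.8 and 17.4 FPKM in PSTK-KO and 12.8, 12.9 and 11.9 FPKM in control cells, higher by 0.59 (SE 0.07, adjusted p = 1.04e-07).

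The kinases also parted. CDK6 (chr7:92604921-92836594) had 37.1, 40.1 and 36.5 FPKM in PSTK-KO and 28.9, 30.4 and 25.8 FPKM in control cells (0.41, SE 0.05, edgeR adjusted p = 1.56e-07). CDK4 (chr12:57747727-57756013) had 38.9, 37.9 and 38.3 FPKM in PSTK-KO and 47.4, 44.1 and 47.0 FPKM in control cells (-0.27, SE 0.05, adjusted p = 0.000141). CDK6 averaged 37.9 ± 1.91 FPKM in PSTK-KO and 28.4 ± 2.37 FPKM in control cells, and CDK4 38.3 ± 0.50 FPKM in PSTK-KO and 46.2 ± 1.81 FPKM in control cells (SD, n = 3 each), so that CDK4 exceeded CDK6 in control cells while their levels overlapped in PSTK-KO cells. CDK2 (chr12:55966769-55972784) had 37.1, 36.9 and 37.7 FPKM in PSTK-KO and 37.7, 38.5 and 36 FPKM in control cells (-0.01, SE 0.05, adjusted p = 0.912). Of the INK4 genes, CDKN2C (chr1:50960745-50974633) had 23.9, 23.0 and 23.6 FPKM in PSTK-KO and 29.0, 27.3 and 29.6 FPKM in control cells (-0.29, SE 0.06, adjusted p = 0.000229). CDKN2A (chr9:21967753-21995301) had 67.7, 62.2 and 61.6 FPKM in PSTK-KO and 61.0, 52.6 and 57.1 FPKM in control cells, where the groups nearly met. Its difference of 0.16 (SE 0.05, adjusted p = 0.0202) was lost without the first PSTK-KO library (adjusted p = 0.169) or the second control library (0.117), and by limma on log2(FPKM + 1) (0.150). CDKN2A lies in a region with an antisense gene, and RB1 holds another gene in an intron; nothing states that the counting used strand, and reads of such neighbours then cannot be told apart.

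**Figure D3:**
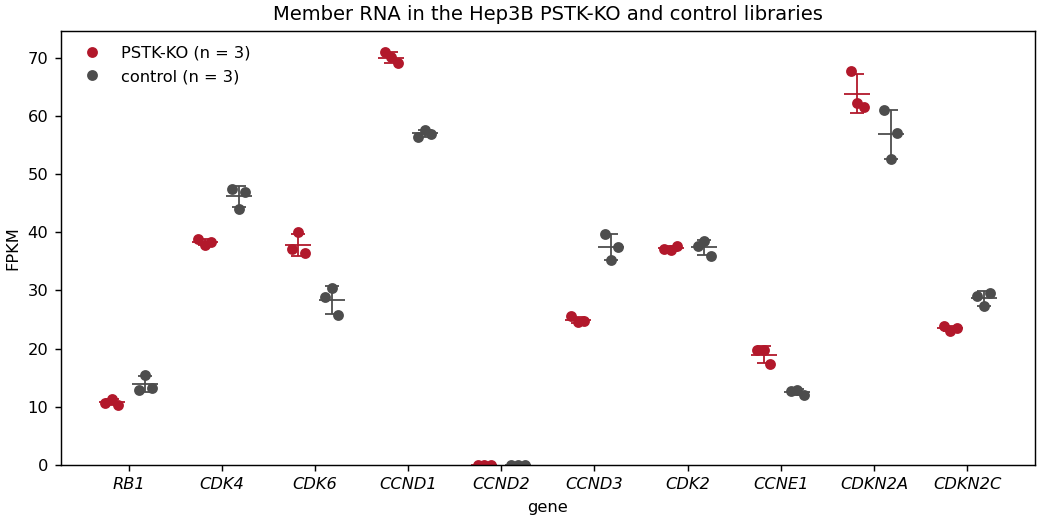
FPKM (vertical axis) of the 10 genes in 3 Hep3B PSTK-KO libraries (red) and 3 control libraries (grey); points are libraries, long bars the mean and whiskers the SD. CCNE1, CDK6 and CCND1 lie higher in PSTK-KO without overlap, at 17.4 to 19.8, 36.5 to 40.1 and 69.1 to 71.1 FPKM, CCND3, RB1, CDKN2C and CDK4 lower, and CCND2 is at or near 0.

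The promoters of CDK4 and CDK6 are shown because the RNA of these kinases moved in opposite directions. RefSeq (GRCh38.p14) gave 13 promoters for 7 of the 10 genes, each 300 bases long, 250 before and 50 after the transcription start, written 5′ to 3′ on the strand of the gene. Capitals mark the E-box CACGTG, the site named for MYC and related factors, which is its own reverse complement.
CDK4, chr12:57752261-57752560, minus strand: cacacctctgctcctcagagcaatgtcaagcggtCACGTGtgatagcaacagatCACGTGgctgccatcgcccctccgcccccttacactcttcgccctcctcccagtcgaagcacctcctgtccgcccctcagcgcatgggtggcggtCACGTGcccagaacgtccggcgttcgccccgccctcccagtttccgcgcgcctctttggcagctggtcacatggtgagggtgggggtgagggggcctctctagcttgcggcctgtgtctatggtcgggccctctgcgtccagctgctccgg
CDK6, chr7:92836524-92836823, minus strand: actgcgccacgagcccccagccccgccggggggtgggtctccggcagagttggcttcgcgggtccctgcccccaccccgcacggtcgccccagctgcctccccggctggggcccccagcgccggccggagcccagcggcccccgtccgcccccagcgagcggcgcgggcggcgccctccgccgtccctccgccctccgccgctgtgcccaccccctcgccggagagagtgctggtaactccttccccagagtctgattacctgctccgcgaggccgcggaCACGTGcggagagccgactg
CDK4 thus had 3 E-boxes in this window and the CDK6 promoter shown had 1, while the second CDK6 promoter of the table (chr7:92833910-92834209) had none, and 4 of the 13 member promoters held one, where 7.26% of 35116 RefSeq promoters did. The E2F sites TTTCCCGC, TTTCGCGC, TTTGGCGC and TTTGCCGC, searched on both strands, were in none of the 13 and in 3.31% of all promoters. CCND1, CCND2 and CDK2 had no promoter among the 13. The only RB1 promoter (chr13:48476200-48476499) lies inside the gene (chr13:48303726-48599436), so the first start of RB1 was not searched. The GC content was 66.0% for CDK4 and 78.0% for the CDK6 promoter shown.

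Genes listed as E2F targets, where called, moved mostly one way. The list was chosen with earlier results of these data known, so its shares are a description and no test. It holds CCNE2, CCNA2, E2F1 and RBL1 in common with the other RB pathway genes below. Of 26 tested, 14 were lower in PSTK-KO cells and 1 higher by edgeR, where 17.2% and 15.6% of all genes were, and their median log2 difference was -0.16 against -0.00 over all genes. The lower ones included subunits of the MCM helicase, which unwinds DNA at replication origins: MCM6 with 26.3, 27.2 and 25.3 FPKM in PSTK-KO and 39.4, 42.1 and 41.0 FPKM in control cells (-0.64), MCM5 (-0.55), MCM2 (-0.41) and MCM3 (-0.32). The gene called higher, named after its value was seen, was MYBL2, a cell cycle transcription factor, at 0.31. Of 31 other RB pathway genes tested, 11 were higher and 5 lower, with a median of 0.11. CDC25A, a phosphatase that activates CDK2, was higher by 0.52 and CDK1 by 0.30, while E2F1, with 38.6, 39.9 and 40.7 FPKM in PSTK-KO and 53.2, 48.0 and 50.6 FPKM in control cells, was lower (-0.35), as was the inhibitor CDKN1C (-0.47). Over all genes 2395 were called higher and 2640 lower with TMM scaling, and 3426 higher and 1905 lower with scaling by library totals, which shifts the median of all genes by 0.07; the members kept 4 calls in either direction.

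**Figure D4:**
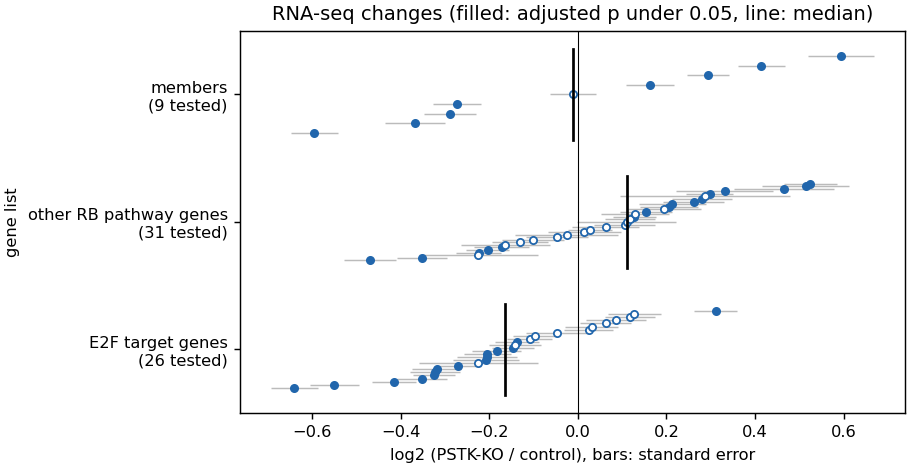
Log2 ratio of PSTK-KO over control (horizontal axis) for each tested gene of 3 lists (rows), with standard errors as bars, filled points passing an edgeR adjusted p of 0.05 and black lines at each list's median. The E2F targets have their median at -0.16, the other RB pathway genes at 0.11 and the members at -0.01. The lists were chosen with earlier results of these data known.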

How the data were processed

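Guide abundance was measured by amplifying and sequencing guide inserts from genomic DNA of 32 screen libraries. Counts of each guide, from Bowtie2, were deposited by the authors as whole numbers. For the 6 RNA-seq libraries the deposited table holds counts per gene, made by the authors with HISAT2 2.0.5 and featureCounts 1.5.0-p3, and FPKM computed from them. The labels name the build mm9, but the gene identifiers and positions are human. Columns of group means and of the authors' own differential test were not used.

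Counts were tested with edgeR 4.0.16 (R 4.3.3, TMM, filterByExpr, quasi-likelihood, Benjamini-Hochberg) over the 16 libraries of a line, all 32 for the difference between lines, or 6 RNA-seq libraries. NormZ was recomputed after DrugZ, as in the study, with libraries scaled to 10000000, pseudocount 5 and a window of 1000 guides, in Python 3.11.15 (numpy 2.4.6, scipy 1.17.1, pandas 2.3.3, matplotlib 3.10.9). CPM are counts scaled to the library's total. Depth was 11198022 to 46376708 counts per screen library and 15404153 to 16851558 per RNA-seq library. Alternatives used DESeq2 1.42.0, limma 3.58.1 on log2(FPKM + 1) or log2(FPKM + 0.1), other filters and scalings, only the groups compared, and each library left out. Sequences of the guides were not used here.

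Tests were run on simulated data with 100 guides or genes changed by each fold. The guide test called all 100 at log2 -1 and -2 (Hep3B, drug classes, 35785 guides). NormZ called 83 and 89 of 100 (Hep3B, Abemaciclib, 18029 genes) and the RNA-seq test 97 at 0.5 and 100 at 1 (15370 genes). Simulated guides varied less than real ones. The guide test changed only the more abundant guides, and for NormZ all guides of a gene moved together. The guide test called 8 unchanged guides, while 56.0% of real Hep3B control guides were called between the drug classes. How low or discordant member guides are treated was therefore not tested, and SNU-398 was left out of the guide test.

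All 10 members are named; NormZ is printed where p was under 0.05 and as a range otherwise. Of each list, the 4 genes with the smallest adjusted p in the RNA-seq and the 4 with the largest absolute class NormZ are named, and for RB1 the 3 genes with the most similar NormZ profile. The members and the lists were chosen with earlier results of these data known.

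Replicate numbers were not found to pair libraries: deviations of same-numbered libraries correlated at -0.01 to 0.03 in Hep3B, -0.01 to 0.10 in SNU-398 and at most 0.10 in the RNA-seq.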

Additional observations from a re-analysis of the deposited data

Results flagged for a closer look

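For 8 member guides the contrast of CDK4/6 inhibitors with the other inhibitors differed between the lines, as SNU-398 minus Hep3B on the log2 scale by edgeR over all 32 libraries. CCND1 guide 1 differed by 3.03, CCND1 guide 2 by 3.07, RB1 guide 1 by 1.55 and CDK6 guide 3 by 0.21, each higher in SNU-398. The CCND1 sizes are uncertain, since in Hep3B guide 1 had 2 and 0 counts under Palbociclib and guide 2 had 2 and 1 under Abemaciclib. CDKN2C guide 2 differed by -0.30, CDKN2C guide 3 by -4.17, CCND3 guide 4 by -0.96 and CDK6 guide 4 by -1.09, each lower in SNU-398. CDKN2C guide 3 had no more than 4 counts in any Hep3B inhibitor library and was at 0 in both libraries of Sorafenib and of Erastin, so the size of its difference is set by groups at 0 and is no bound. The share of all guides called in this test was 26.9%.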

How the results depend on the processing

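Counts of called members kept within 1.5 times their value under most alternatives, the exceptions being mainly in SNU-398. With DESeq2, 13 member guides separated the drug classes in SNU-398, 7 lower and 6 higher (8 in the edgeR fit, 2 lower and 6 higher). With only guides of a mean T1 count of at least 30, SNU-398 gave 2 for CDK4/6 inhibitors against T1, 3 for T1 against T0, 2 for Abemaciclib against Palbociclib and 27 for each inhibitor against T1 (5, 7, 6 and 59 in the edgeR fit), and the NormZ counts at p of 0.01 were 3 in SNU-398 and 0 for the Hep3B class comparison (0 and 1 otherwise). With only the groups compared, SNU-398 gave 9 against T1 and 16 for T1 against T0. With pseudocount 1 the NormZ counts were 1 in Hep3B (2 otherwise) and 1 in the SNU-398 class comparison (0 otherwise). Leaving out 1 library at a time, where a lone library is assumed to vary like the other groups, gave 9 to 14 for the classes, 15 to 19 for CDK4/6 inhibitors against T1, 9 to 12 for T1 against T0, 18 to 19 for Abemaciclib against Palbociclib and 87 to 106 for each inhibitor in Hep3B. In SNU-398 the ranges were 6 to 12, 0 to 9, 1 to 13, 0 to 11 and 28 to 99. NormZ counts ranged over 1 to 3 in Hep3B and 0 to 2 in SNU-398, and the RNA-seq count over 7 to 8. CDK2 RNA, never called, was 0.058 with library totals and -0.035 to 0.014 with 1 library left out, where the sign turned without the second control library. Among single values, 412 of the guides, 100 of the NormZ and 102 of the RNA-seq recomputations kept their direction and call, and 32, 22 and 4 lost the call. The cause was not tested.

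With a replicate block the counts were 12, 19, 12, 18 and 104 in Hep3B and 8, 5, 6, 4 and 54 in SNU-398, in the order of the comparisons above, 8 for the difference between lines and 8 in the RNA-seq; NormZ without the replicate block gave 2 in Hep3B and 0 in SNU-398.

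Low counts limit many guides: 18 of 39 Hep3B and 14 of 37 SNU-398 member guides had a mean T1 count of at least 30.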
